A study of Mus musculus with 6 samples.

Results

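The genes described here encode the beta subunits of the sodium pump (Atp1b1, Atp1b2 and Atp1b3) and 3 of the hyperpolarization-activated cyclic nucleotide-gated (HCN) channels (Hcn2, Hcn3 and Hcn4). They were taken by symbol from the gene table of an RNA-Seq experiment on mouse retinal cells, and make up 6 of its 32371 genes. All 6 passed edgeR's filter on low counts, which left 18138 genes for testing. The rule that defines them is a list of names and uses no measured value. The names themselves were chosen with earlier results of these data known.

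The experiment compared 3 libraries from mice given AAV2-GFP with 3 libraries from mice given AAV2-Ezh2-Y726D. Ezh2 is the methyltransferase of Polycomb repressive complex PRC2, which places the repressive mark H3K27me3, and the Y726D form carries an amino acid change that removes this activity. Both groups were adult C57BL/6J mice of both sexes that received the virus by intravitreal injection, had the optic nerve crushed (ONC) 2 weeks later and were killed 3 days after the ONC. Living retinal cells carrying CD90.2 (the product of Thy1) were then sorted. Both groups had virus and injury, so the comparison addresses the effect of the Ezh2-Y726D transgene in injured retina, and no uninjured or uninjected library was used here. The mice also kept their own Ezh2. The sources used here do not say whether a library holds pooled retinas or separate animals. P values therefore set the difference between the groups against the spread between these libraries, which may be technical. In edgeR's test the estimate of that spread for a gene also borrows from all tested genes.

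The sodium pump (Na/K-ATPase) spends ATP to move sodium out of the cell and potassium in. Its alpha subunit carries out transport, and its beta subunit is needed for folding of the alpha subunit and for delivery of the pump to the membrane. In the retina the pump maintains the dark current of photoreceptors and restores ion gradients after spikes in ganglion cells. HCN channels open when the membrane is hyperpolarized, pass a mixed sodium and potassium current (Ih) and open more readily when cAMP binds. In the retina they shape the light response of photoreceptors and bipolar cells and the resting potential and firing of other neurons.

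The 6 libraries held 9333244 to 23782520 counts. The ribosomal RNA gene CT010467.1 accounted for 6.59%, 50.9% and 52.2% of GFP libraries 1 to 3 and for 2.55% to 16.1% of the Ezh2-Y726D libraries, so the counts left over ranged from 4460732 to 22024582 and GFP replicates 2 and 3 were the shallowest. Levels are therefore given as CPM, the count of a gene relative to the size of its library after TMM scaling. The transgene check was clear: Ezh2 was at 22.7, 23.9 and 26.4 CPM with GFP and at 65.2 to 65.6 CPM with Ezh2-Y726D. The labels call the cells retinal ganglion cells (RGCs), and RGC markers were present, with Thy1 at 35.2 and Rbpms at 2.34 CPM per kilobase of exon in the GFP group. In the same group the rod transducin gene Gnat1 stood at 312.4 and the Müller glia gene Glul at 894.7 CPM per kilobase, the highest of the rod and Müller glia markers reported here. The other rod markers were at 16.3 to 66.1, the other Müller glia markers at 15.3 to 189.8 and the RGC markers at 0.550 to 42.8. The values below therefore describe CD90.2-sorted retinal cells that also contain much RNA of other retinal cell types. In such bulk samples, fewer cells of a type and less RNA per cell cannot be told apart.

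Of the 6 genes, Atp1b1 and Hcn2 rose with Ezh2-Y726D, by 1.38-fold and 1.35-fold, and their groups did not overlap. Hcn3 was lower by the same test with all libraries but not without GFP replicate 1. Atp1b2, Atp1b3 and Hcn4 did not pass the test. With edgeR's quasi-likelihood test at an adjusted P under 0.05, 2 of 6 genes were therefore called higher and 1 lower, against 13.9% of all tested genes called higher and 13.6% called lower (27.5% in either direction). None of the 6 also passed a fold change of 1.5, whereas 8.02% of tested genes did (2.52% higher and 5.50% lower). Groups that did not overlap were seen for 2 of 6 genes, both higher, against 19.7% of tested genes that were higher, 18.9% that were lower and 38.6% in either direction. Scaled to the summed pan-neuronal markers, an alternative added after seeing the data, 1 of the 6 was called higher (Atp1b1, 0.20) and 4 lower, where 602 of the 18138 tested genes were called higher and 9881 lower, and Hcn2 (0.17, adjusted P = 0.0752, edgeR) was not called. Scaled by plain library totals, neither Atp1b1 (0.97, adjusted P = 0.313, edgeR) nor Hcn2 (0.94, adjusted P = 0.334) was called. With TMM scaling, the median log2 fold change was 0.07 over the 6 genes and 0.00 over all tested genes.

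The promoters of both genes that rose are shown first, with that of Hcn4 as a family member that did not pass the test. The windows of 300 bases around the RefSeq start (GRCm38.p6) run 5′ to 3′ on the gene's strand, and capitals mark CpG dinucleotides. They lie at chr1:164458306-164458605 on the minus strand for Atp1b1, at chr10:79716384-79716683 on the plus strand for Hcn2 and at chr9:58822699-58822998 on the plus strand for Hcn4, whose RefSeq start lies upstream of the GENCODE start given below.
Atp1b1: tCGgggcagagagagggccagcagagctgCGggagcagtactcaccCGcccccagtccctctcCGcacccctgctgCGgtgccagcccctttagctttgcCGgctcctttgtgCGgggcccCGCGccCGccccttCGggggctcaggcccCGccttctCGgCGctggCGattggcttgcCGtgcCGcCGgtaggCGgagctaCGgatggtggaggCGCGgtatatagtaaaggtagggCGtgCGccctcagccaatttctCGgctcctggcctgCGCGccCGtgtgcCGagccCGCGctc
Hcn2: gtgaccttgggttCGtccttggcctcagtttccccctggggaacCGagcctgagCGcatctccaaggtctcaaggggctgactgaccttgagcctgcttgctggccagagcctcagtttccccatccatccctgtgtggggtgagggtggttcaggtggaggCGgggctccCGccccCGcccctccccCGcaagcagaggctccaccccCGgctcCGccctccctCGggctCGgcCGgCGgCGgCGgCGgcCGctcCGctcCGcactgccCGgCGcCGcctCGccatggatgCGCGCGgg
Hcn4: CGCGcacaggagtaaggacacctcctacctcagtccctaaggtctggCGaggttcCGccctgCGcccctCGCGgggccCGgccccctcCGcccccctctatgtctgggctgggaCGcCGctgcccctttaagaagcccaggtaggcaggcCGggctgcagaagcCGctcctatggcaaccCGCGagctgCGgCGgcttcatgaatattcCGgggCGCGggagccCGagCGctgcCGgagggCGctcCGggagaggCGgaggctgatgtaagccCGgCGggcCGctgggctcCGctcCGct

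All 3 windows were rich in CpG. Atp1b1 and Hcn4 had 31 CpG each and Hcn2 had 26, whereas the median over 32851 RefSeq promoter windows of this length was 7. As many CpG as in the Atp1b1 and Hcn4 windows were found in 10.6% of all windows, and as many as in the Hcn2 window in 16.9%. A promoter entry was matched for 4 of the 6 genes; Atp1b3 had 2 windows, with 34 and 39 CpG, reached by 7.73% and 4.45% of all windows. All motifs were searched on both strands. The GC box letters GGGCGG occurred 2 times in the Atp1b1 window, 3 times in that of Hcn2, 2 times in that of Hcn4 and 6 and 0 times in those of Atp1b3, and were present in 35.7% of all windows. Neither the TATA box letters TATAAA (13.6% of all windows) nor the full cAMP response element TGACGTCA (1.79%) occurred in any of the 5 windows. These counts describe the sequence only, and Hcn4 had as many CpG and GC boxes as Atp1b1.

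Atp1b1 encodes the beta1 subunit, the widespread beta subunit of neurons (ENSMUSG00000026576, chromosome 1, 164437109 to 164458355, minus strand, GRCm38). It stood at 191, 201 and 185 CPM in GFP replicates 1 to 3 and at 257, 276 and 267 CPM in Ezh2-Y726D replicates 1 to 3. Every Ezh2-Y726D library was above every GFP library. The mean rose from 193 ± 8.05 to 266 ± 9.77 CPM (SD, n = 3 each), a log2 fold change of 0.47 (SE 0.0420, 95% interval 0.38 to 0.55) with an adjusted P of 8.77e-10 in edgeR's test. This change was at percentile 93.6 of all tested genes, and the level of Atp1b1 at percentile 98.3. Of its merged exons, 18.7% overlap Nme7 on the opposite strand. Nme7 itself was at 8.07 to 9.29 CPM with GFP and 8.53 to 9.65 CPM with Ezh2-Y726D (log2 fold change 0.12, adjusted P = 0.47, edgeR). Whether its reads took part in the difference in Atp1b1 was not tested.

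Atp1b2 encodes the beta2 subunit, known also as an adhesion molecule on glia and as the partner of retinoschisin on photoreceptors (ENSMUSG00000041329, chromosome 11, 69599736 to 69605942, minus strand). Its levels were 211, 224 and 232 CPM with GFP and 225, 241 and 234 CPM with Ezh2-Y726D. The groups overlapped, since GFP replicate 3 lay above Ezh2-Y726D replicate 1. The log2 fold change was 0.08 (SE 0.0421, 95% interval -0.01 to 0.16; adjusted P = 0.186, edgeR).

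Atp1b3 encodes the beta3 subunit (ENSMUSG00000032412, chromosome 9, 96332655 to 96364442, minus strand). It was at 125, 130 and 140 CPM with GFP and at 135, 139 and 135 CPM with Ezh2-Y726D, and GFP replicate 3 was the highest library of all. The log2 fold change was 0.06 (SE 0.0433, 95% interval -0.02 to 0.15; adjusted P = 0.312, edgeR). For both Atp1b2 and Atp1b3 the interval ends below the lower bound of Atp1b1.

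**Figure D1:**
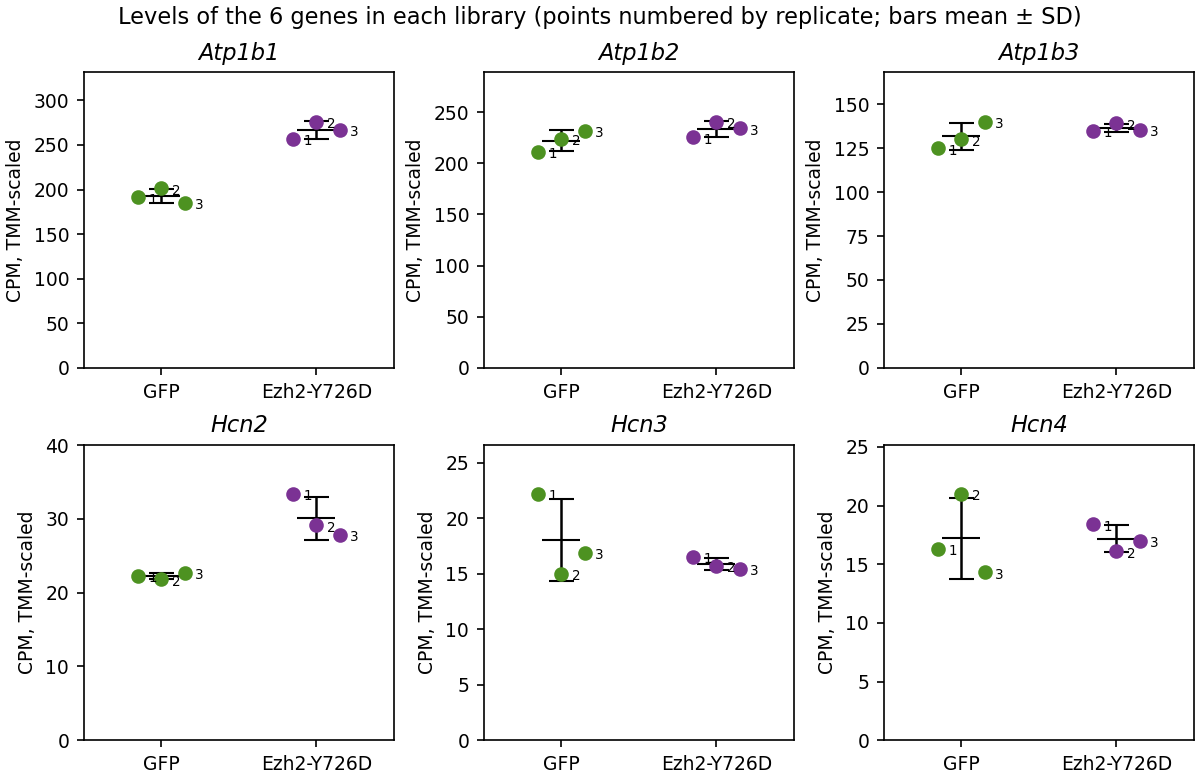
Level of each gene in each library (CPM of the TMM-scaled library on the vertical axis; points are libraries numbered by replicate, bars are the mean and SD of 3). Atp1b1 (185 to 201 against 257 to 276 CPM) and Hcn2 separate the GFP and Ezh2-Y726D libraries, and the single high GFP point of Hcn3 is replicate 1.

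Hcn2 encodes an HCN channel with strong cAMP response that is widespread in neurons (ENSMUSG00000020331, chromosome 10, 79716634 to 79736108, plus strand). The GFP libraries lay close together at 22.3, 21.8 and 22.7 CPM, and the Ezh2-Y726D libraries were at 33.4, 29.1 and 27.8 CPM. All Ezh2-Y726D libraries were above all GFP libraries, with replicate 1 the highest. The mean went from 22.3 ± 0.464 to 30.1 ± 2.92 CPM (SD, n = 3 each), and the log2 fold change was 0.43 (SE 0.0741, 95% interval 0.28 to 0.59; adjusted P = 3.73e-05, edgeR). The counts behind these values were 637, 169 and 137 with GFP and 888, 594 and 820 with Ezh2-Y726D.

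Hcn3 encodes a channel with little response to cAMP (ENSMUSG00000028051, chromosome 3, 89146074 to 89160196, minus strand). It was at 22.2, 15.0 and 16.9 CPM with GFP and at 16.5, 15.7 and 15.4 CPM with Ezh2-Y726D. Only GFP replicate 1 stood apart: the exact 95% Poisson interval of its level, 20.5 to 24.0 CPM, lay above that of GFP replicate 2 (12.4 to 17.9) and reached that of GFP replicate 3 (13.8 to 20.5) only at its end. The other 2 GFP libraries overlapped the Ezh2-Y726D group. These intervals cover counting error only. The log2 fold change of -0.29 (SE 0.0963, 95% interval -0.49 to -0.10) had an adjusted P of 0.0222 with all libraries in edgeR's test. Without GFP replicate 1 it was 0.00 with an adjusted P of 0.996. Without Ezh2-Y726D replicate 2 (-0.28, adjusted P = 0.0662) or 3 (-0.26, adjusted P = 0.0758) the fold change stayed near that of all libraries while the call was lost, and it was not called in DESeq2 with all libraries (-0.23, adjusted P = 0.295). GFP replicate 1 had the smallest share of rRNA counts in its group, at 6.59%, and the part of this difference in the result was not tested. Of the exons of Hcn3, 17.1% overlap Pklr on the opposite strand, which had at most 1 count in any library.

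Hcn4 encodes the slowest-opening HCN channel, known from the cardiac pacemaker and found in bipolar cells (ENSMUSG00000032338, chromosome 9, 58823412 to 58863175, plus strand). Its levels were 16.3, 21.0 and 14.3 CPM with GFP and 18.4, 16.1 and 17.0 CPM with Ezh2-Y726D. The GFP libraries enclosed all Ezh2-Y726D libraries. The means were 17.2 ± 3.47 and 17.2 ± 1.15 CPM (SD, n = 3 each) and the log2 fold change was 0.02 (SE 0.0927, 95% interval -0.17 to 0.21; adjusted P = 0.914, edgeR). Hcn3 and Hcn4 varied most among the GFP libraries, with coefficients of variation of 20.8% and 20.2%. Hcn4 was counted 464, 163 and 86 times there, and its GFP libraries differed beyond counting error, since the 95% Poisson intervals of GFP replicate 2 (17.9 to 24.5 CPM) and GFP replicate 3 (11.4 to 17.6 CPM) did not meet.

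**Figure D2:**
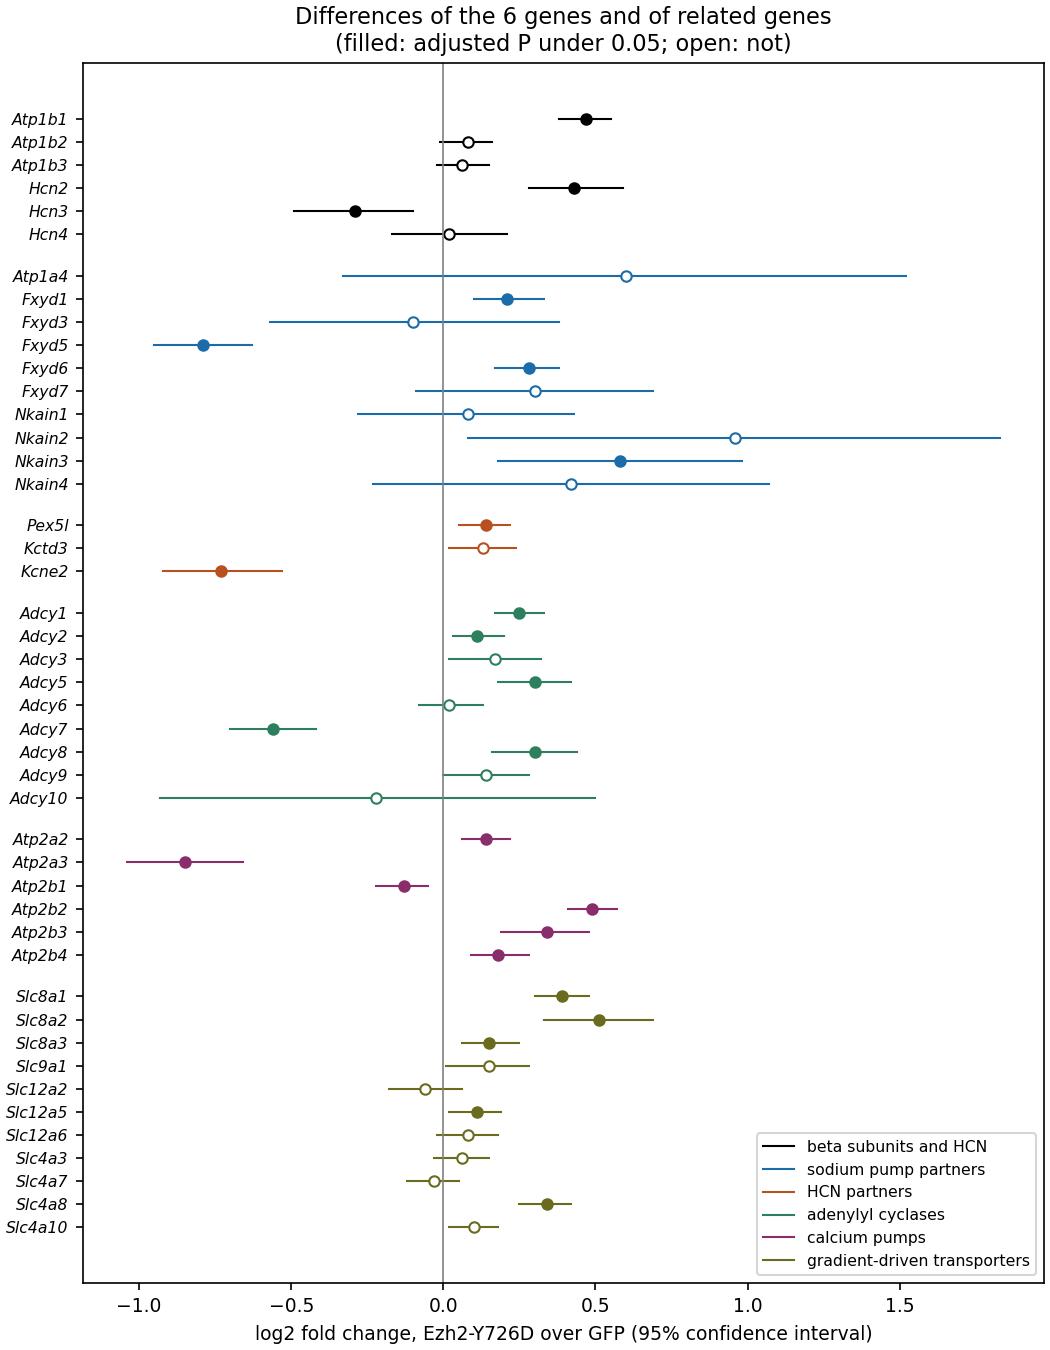
Log2 fold change (Ezh2-Y726D over GFP, edgeR) of the 6 genes and of the partner genes by list on the vertical axis, with 95% intervals. Atp1b1 (0.47) and Hcn2 (0.43) lie to the right of 0, and the intervals of Atp1b2, Atp1b3 and Hcn4 cross it.

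Per kilobase of exon, the order in the GFP group was Atp1b1 (62.5 ± 2.61 CPM per kilobase, SD, n = 3), Atp1b3 (55.1 ± 3.24), Atp1b2 (54.4 ± 2.49), Hcn2 (6.98 ± 0.145), Hcn3 (4.34 ± 0.902) and Hcn4 (2.81 ± 0.567). Atp1b2 and Atp1b3 overlapped and did not differ beyond their spread. In the Ezh2-Y726D group Atp1b1 was at 86.5 ± 3.17, and Atp1b2 (57.1 ± 1.88) and Atp1b3 (57.1 ± 0.952) overlapped again. Hcn2 was at 9.42 ± 0.913 there, above Hcn3 (3.82 ± 0.135) and Hcn4 (2.81 ± 0.189), and this order of the HCN genes was the same in every library.

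The make-up of each family was compared as the share of a gene in its family's summed level per kilobase, a quantity that does not depend on the scaling between libraries. Atp1b1 made up 37.4%, 37.4% and 34.3% of the beta subunits with GFP and 42.7%, 43.4% and 43.2% with Ezh2-Y726D, a difference of 6.72 percentage points. The shares of Atp1b2 (31.2% to 32.3% with GFP) and Atp1b3 (31.2% to 33.4%) were lower with Ezh2-Y726D, with differences of -3.14 and -3.58 points. Shares of a family sum to its whole, so these differences are the other side of that of Atp1b1 and are not separate results; the levels of Atp1b2 and Atp1b3 had log2 fold changes of 0.08 and 0.06. The same holds among the HCN genes. Hcn2 made up 46.6%, 49.2% and 52.6% of Hcn2 to Hcn4 with GFP and 59.9%, 58.7% and 57.2% with Ezh2-Y726D, a difference of 9.14 points, and Hcn3 made up 35.6%, 26.0% and 30.1% with GFP and 22.8%, 24.3% and 24.4% with Ezh2-Y726D, a difference of -6.74 points that was -4.21 points without GFP replicate 1. None of these groups overlapped, and each had P = 0.1 in a two-sided exact permutation test over the 6 libraries, the smallest that 3 against 3 libraries allow. The share of Hcn4 overlapped between the groups, at 17.2% to 24.8% and 17.0% to 18.3% (exact permutation P = 0.6).

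**Figure D3:**
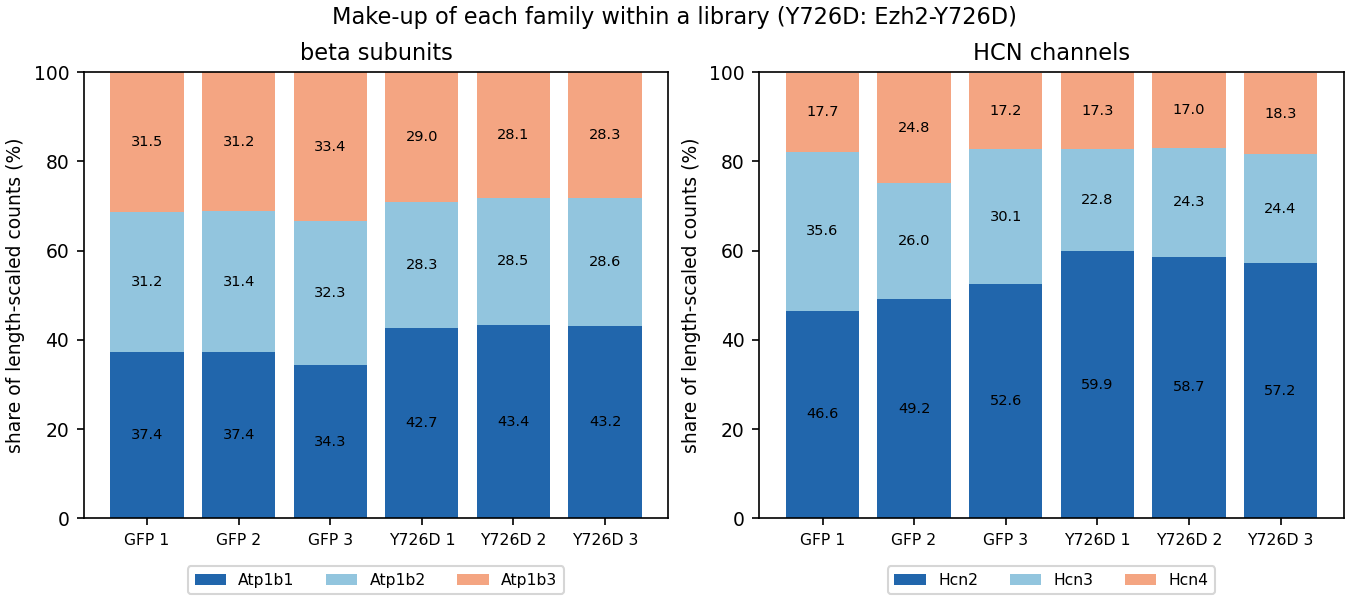
Share of each gene in its family's summed CPM per kilobase (percent, vertical axis) in each library, for the beta subunits and for Hcn2 to Hcn4. The Atp1b1 share is 34.3% to 37.4% in the GFP libraries and 42.7% to 43.4% in the Ezh2-Y726D libraries.

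Summed per kilobase, the beta subunits went from 172.1 ± 5.16 to 200.7 ± 5.93 CPM per kilobase (SD, n = 3 each), a ratio of 1.17. Hcn2 to Hcn4 together went from 14.1 ± 0.777 to 16.0 ± 1.21 CPM per kilobase, a ratio of 1.14. The groups did not overlap in either sum, each with the smallest exact permutation P of 0.1. Within libraries, the log2 ratio of Hcn2 to Atp1b1 differed by -0.04 between the groups, which overlapped (exact permutation P = 0.8), and that of Atp1b3 to Atp1b2 by -0.02 (exact permutation P = 0.5). Of the 15 pairs of the 6 genes, 7 overlapped between the groups, these among them, and 8 did not (each with the smallest exact permutation P of 0.1). The 8 were the pairs of Atp1b1 or Hcn2 with each of Atp1b2, Atp1b3, Hcn3 and Hcn4, such as Hcn2 to Atp1b2 (0.36), Hcn4 to Atp1b1 (-0.45), Hcn3 to Hcn2 (-0.59) and Hcn3 to Atp1b1 (-0.63). With 3 against 3 libraries no pair could pass a correction.

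Among the other genes of the pump, mostly the small FXYD regulators and the NKAIN proteins that bind it, 3 of 10 tested genes were called higher and 1 lower, with a median log2 fold change of 0.29. This median includes uncalled genes with means of at most 1.02 CPM, whose log2 fold changes were 0.42 to 0.96. The number called higher was 2 without GFP replicate 1, GFP replicate 3 or Ezh2-Y726D replicate 3. The regulators Fxyd1 (0.21, adjusted P = 0.0033) and Fxyd6 (0.28, adjusted P = 1.12e-04) and Nkain3, a pump-interacting protein with few counts (0.58, adjusted P = 0.0275), were higher in edgeR's test. Fxyd5 was lower, from 32.7 ± 4.75 to 18.5 ± 0.608 CPM (-0.79, adjusted P = 4.29e-09, edgeR).

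Of the 3 genes tested whose products assist the HCN channels, 1 was called higher and 1 lower, with a median of 0.13; the number called higher was 0 without GFP replicate 2 or Ezh2-Y726D replicate 2 and 2 without Ezh2-Y726D replicate 3 or with a replicate block. Pex5l, which encodes the channel's trafficking subunit TRIP8b, was higher by 0.14 (SE 0.0416, adjusted P = 0.0134, edgeR), and Kcne2, an accessory subunit of several potassium channels, fell from 15.9 ± 0.397 to 9.55 ± 1.05 CPM (-0.73, adjusted P = 7.45e-07, edgeR). Of the adenylyl cyclases, which make the cAMP that HCN channels bind, 4 of 9 were called higher (Adcy1, Adcy2, Adcy5 and Adcy8, by 0.11 to 0.30) and Adcy7 lower (-0.56, adjusted P = 2.87e-07, edgeR), with a median of 0.14; 3 to 5 were called higher with single libraries left out.

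The calcium pumps and the carriers that run on the sodium gradient or exchange ions are the neighbours of the sodium pump in ion balance. Of 6 calcium pumps, 4 were called higher and 2 lower, with a median of 0.16; Atp2b2, the plasma membrane pump of hair cells and neurons, rose by 0.49 (adjusted P = 1.63e-10, edgeR), Atp2b3 by 0.34, Atp2b4 by 0.18 and Atp2a2 by 0.14, whereas Atp2a3 fell by 0.85 and Atp2b1 by 0.13. Without GFP replicate 2 or Ezh2-Y726D replicate 1, 1 calcium pump was called lower. Of 11 carriers, 5 were called higher and 0 lower, with a median of 0.11; the number called higher was 4 whichever single library was left out and 6 with a replicate block. The sodium-calcium exchangers Slc8a2 (0.51), Slc8a1 (0.39) and Slc8a3 (0.15) were among them, with the bicarbonate carrier Slc4a8 (0.34) and the neuronal potassium-chloride carrier Slc12a5 (0.11). The other 6 had log2 fold changes of -0.06 to 0.15. The 13.9% and 13.6% of all tested genes given above are the background for these counts.

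Cell type markers moved with the groups, and these values stand beside all results above. Pan-neuronal markers summed to 2064.4 to 2172.9 CPM with GFP and 2475.5 to 2585.4 CPM with Ezh2-Y726D (5 of 6 called higher), and amacrine markers to 631.1 to 705.3 and 1067.7 to 1110.5 CPM (6 of 6 higher). Rod markers were within 1919.9 to 2058.6 and 1912.6 to 2051.3 CPM (1 of 6 higher, 1 lower). RGC markers were within 443.2 to 457.1 and 434.0 to 471.2 CPM (2 of 10 higher, 1 lower). Lower sums were seen for microglia and macrophages (1107.2 to 1221.9 against 440.4 to 510.3 CPM, 7 of 9 lower and 1 higher), cones (453.5 to 475.7 against 293.4 to 310.4 CPM, 7 of 8 lower), bipolar cells (1052.2 to 1080.7 against 850.0 to 862.8 CPM, 7 of 8 lower and 1 higher) and T cells (76.9 to 80.8 against 43.4 to 50.1 CPM, 5 of 5 lower). Of the microglia and macrophage markers, P2ry12 was called higher (0.33, adjusted P = 0.0243, edgeR) and Tmem119 was not called (-0.14). Lyz2 alone went from 506.1 ± 29.7 to 118.0 ± 12.4 CPM. Müller glia markers stood at 5395.0 to 5671.8 and 5167.7 to 5367.9 CPM, with 1 of 7 higher and 1 lower. Sums were also lower for astrocytes (282.9 to 320.1 against 237.1 to 280.9 CPM, 1 of 2 lower), pericytes (203.7 to 220.8 against 158.8 to 172.0 CPM, 4 of 5 lower), endothelial cells (771.5 to 816.3 against 695.3 to 747.5 CPM, 3 of 6 lower) and B cells (3.98 to 5.16 against 2.07 to 3.38 CPM, 2 of 4 lower). Most of the mean endothelial sum with GFP was Kdr (763.3 of 794.0 CPM), and most of the astrocyte sum was Gfap (229.9 of 300.6 CPM). The part of any of these cell types in the results was not tested. With the scaling to the summed pan-neuronal markers, the median of all genes shifted by -0.26; Atp1b1 was at 0.20 (adjusted P = 4.43e-04, edgeR), and Hcn2 at 0.17 no longer passed (adjusted P = 0.0752). Atp1b2 (-0.19), Atp1b3 (-0.20) and Hcn4 (-0.24) were then called lower while above that median, and Hcn3 was at -0.55.

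**Figure D4:**
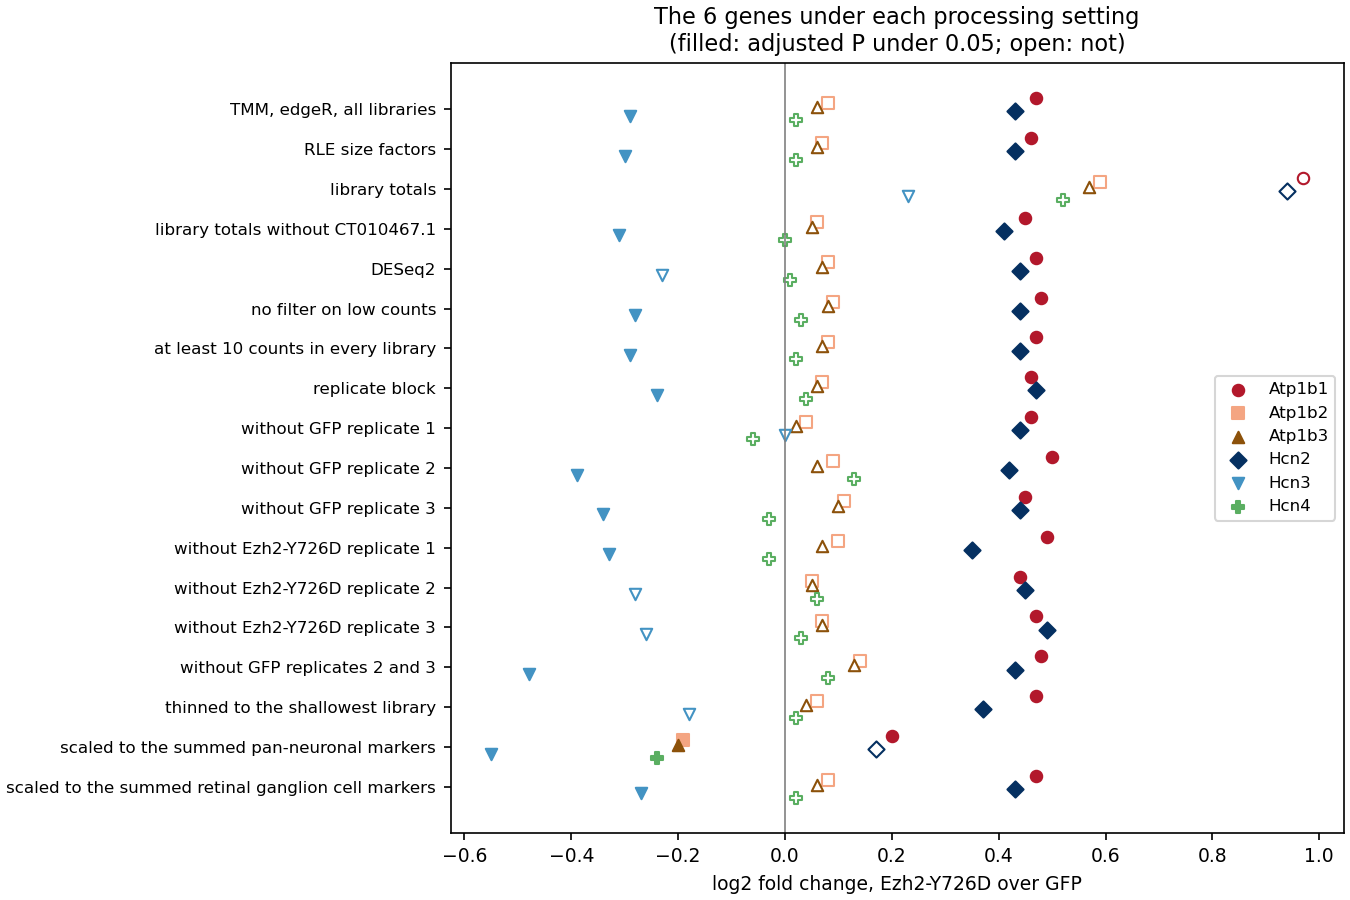
Log2 fold change of the 6 genes (horizontal axis) under each processing setting (vertical axis); filled symbols passed an adjusted P of 0.05. Atp1b1 stays between 0.44 and 0.50 and Hcn2 between 0.35 and 0.49 when single libraries are left out, and Hcn3 moves to 0.00 without GFP replicate 1.

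The genes whose pattern over the 6 libraries was most like that of each gene were found by Pearson's r of log2(CPM + 1) among 10489 genes, as a description only. The best of so many genes over 6 libraries have a high r partly through the search itself. The libraries also share their group and depth. For Atp1b1 the most similar genes were Ptprk (0.9990), a receptor phosphatase, C1ql1 (0.9985), a secreted synaptic protein, and Ttc3 (0.9983). For Hcn2 they were Atxn7l3 (0.9955), a subunit of the SAGA deubiquitinase, Lrpap1 (0.9943) and the axonal adhesion molecule Cntn2 (0.9919). B3glct (0.9949), mt-Nd2 (0.9936) and Gsdme (0.9906) were closest to Atp1b2, and Phf14 (0.9972) and Zfp13 (0.9960) to Atp1b3. Hcn3 was nearest to Zfp622 (0.9833), H3f3a (0.9764) and Oplah (0.9701), and Hcn4 to Pigg (0.9885), Med27 (0.9840) and Top1mt (0.9774).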

How the data were processed

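RNA was measured in 6 libraries of CD90.2-sorted retinal cells. The values deposited by the authors are raw counts per gene (whole numbers), made from a stranded total RNA kit. The submitters' processing notes name STAR 2.7.0d and GRCm38; the counting tool, its annotation and its use of strand are not given in the sources used here. Symbols, coordinates and merged exon lengths came from GENCODE vM21 (GRCm38), and promoters from RefSeq. No column was without a sample.

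Counts were scaled by TMM, filtered with filterByExpr (minimum count 10, minimum total 15) and compared with edgeR 4.0.16's quasi-likelihood test in R 4.3.3, without a replicate block, with Benjamini-Hochberg adjustment over all genes tested. An adjusted P under 0.05 was a call. Shares, sums and ratios were compared with exact permutation tests, two-sided. The 6 genes and the gene lists were chosen with earlier results of these data known. The genes named are the 6, Ezh2, CT010467.1, genes that overlap the 6, the called genes of each partner list, example cell type markers, and for each of the 6 the 3 genes of highest Pearson correlation among tested genes with a mean of at least 10 CPM (pseudocount 1). Some genes of these lists are not reported here and are left out of the list counts. Alternatives for the fold changes of the 6 genes numbered 17 planned and 2 added after seeing the data, with DESeq2 1.42.0 among them. The shares were also computed from raw counts with no length correction.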

Additional observations from a re-analysis of the deposited data

How the results depend on the processing

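The calls of Atp1b1 and Hcn2 held under RLE size factors, library totals without CT010467.1, DESeq2, other filters on low counts, thinning to 4460732 counts, each library left out, and without GFP replicates 2 and 3. With plain library totals, which shift the median of all genes by 0.49, Atp1b1 was at 0.97 (adjusted P = 0.313, edgeR), Hcn2 at 0.94 and Hcn3 at 0.23, and 0 of the 6 genes were called higher and 0 lower (46 and 19 over all genes tested). Scaled to the pan-neuronal markers (added after seeing the data; median of all genes -0.26), Atp1b2 was at -0.19, Atp1b3 at -0.20, Hcn2 at 0.17 (adjusted P = 0.0752, edgeR) and Hcn4 at -0.24, with 1 of the 6 genes called higher and 4 lower (602 and 9881 over all genes tested). Scaling to the RGC markers, also added, changed no call of the 6. Hcn3 was not called under DESeq2 (-0.23), after thinning (-0.18) or at an adjusted P under 0.01 (-0.29), each leaving 0 called lower. At a fold change over 1.5, Atp1b1 (0.47), Hcn2 (0.43) and Hcn3 (-0.29) were not called, leaving 0 and 0. Hcn4 was at -0.00 with library totals without CT010467.1. The cause of these changes was not tested, apart from the stricter thresholds themselves.

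With each library left out in turn, the log2 fold change was 0.44 to 0.50 for Atp1b1, 0.04 to 0.11 for Atp1b2, 0.02 to 0.10 for Atp1b3, 0.35 to 0.49 for Hcn2, -0.39 to 0.00 for Hcn3 and -0.06 to 0.13 for Hcn4. The genes called higher numbered 2 throughout, and those called lower 0 to 1, with 0 without GFP replicate 1, Ezh2-Y726D replicate 2 or Ezh2-Y726D replicate 3. The difference in the share of Hcn4 was -3.74 to 0.0356 points, the latter without GFP replicate 2, and that of Atp1b2 by -3.96 points from raw counts with no length correction. Hcn3 and Hcn4 had the fewest counts of the 6 genes, 102 and 86 in GFP replicate 3. Hcn3 was at -0.48 (adjusted P = 1.05e-04, edgeR) without GFP replicates 2 and 3, the shallowest libraries.

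With a replicate block, the log2 fold changes were 0.46 for Atp1b1, 0.07 for Atp1b2, 0.06 for Atp1b3, 0.47 for Hcn2, -0.24 for Hcn3 and 0.04 for Hcn4, with 2 of the 6 genes called higher and 1 lower as before, and the number called higher went from 1 to 2 for the HCN partners, from 4 to 5 for the adenylyl cyclases and from 5 to 6 for the carriers. The same-numbered libraries correlated by 0.14, 0.05 and 0.04 in their deviations, and every library correlated best with its own number, which is a hint from the data and not from the design, so the numbers were not used as pairs.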
